A study of Arabidopsis thaliana with 6 samples.

Results

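The homeodomain-leucine zipper (HD-Zip) class II genes ATHB2, ATHB4, HAT1, HAT2, HAT3, HAT22 and HB17, a family best known from the shade response, were followed in rosette leaves of Arabidopsis thaliana before and during dehydration stress. The members were taken as a list of locus identifiers, with no threshold on a measured value, and are 7 of the 33555 genes listed for the series. Messenger RNA was sequenced in 6 libraries, 2 biological replicates for each of 3 conditions. W is the watered control, from plants taken out of soil and kept overnight in humid air. S1 is the first dehydration, 2 h of drying in air. S3 is the third such drying, after earlier dryings that were each followed by 22 h of full re-hydration. The labels name no transgene or chemical in any group, and they give the ecotype as Col-0 in one field and the genotype as WS in another. The methods of the study describe the plants as Col-0. The labels also give a longer read length for the W libraries than for S1 and S3, so that read length and stress cannot be told apart in any comparison with W.

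HD-Zip proteins occur only in plants and bind DNA as dimers, through a homeodomain that is joined to a leucine zipper. Those of class II mostly repress transcription. In light with little red relative to far-red, as under a leaf canopy, phytochrome B loses its active form, phytochrome-interacting factors (PIFs) accumulate, and ATHB2 and several relatives are switched on quickly, which favours elongation of stems and petioles. Together with class III HD-Zip proteins such as REVOLUTA (REV), the class II proteins HAT3, ATHB4 and ATHB2 also help to set the upper side of the leaf. HAT1 and HAT3 have further been tied to brassinosteroid signalling, HAT2 to auxin responses, and HAT22 to abscisic acid (ABA), the hormone of water stress.

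The genes lie on 4 chromosomes, and no annotated gene overlaps any of them, which matters because the libraries were made without marking the strand. In the TAIR10.1 assembly with its RefSeq annotation, ATHB2 (AT4G16780) is at chr4:9449114-9450905, HAT1 (AT4G17460) at chr4:9739518-9741234 and HAT22 (AT4G37790) at chr4:17768042-17769676, all on the plus strand. ATHB4 (AT2G44910) is at chr2:18517656-18519731 and HB17 (AT2G01430) at chr2:187608-190369, both on the minus strand. HAT3 (AT3G60390) is at chr3:22320580-22322661 and HAT2 (AT5G47370) at chr5:19216271-19218007, again on the minus strand. The values below are for whole genes, with all exons of a gene, 3 or 4 in each, combined.

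The genes are close relatives, and the stretch that codes for the DNA-contacting helix of the homeodomain is printed because it shows how alike they are where they read DNA. The 45 coding bases are given 5′ to 3′ from TAIR10.1, with an intron removed from each, and capitals mark the bases that differ from ATHB2.
ATHB2: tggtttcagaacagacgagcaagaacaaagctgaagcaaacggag
ATHB4: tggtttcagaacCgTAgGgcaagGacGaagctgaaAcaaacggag
HAT3: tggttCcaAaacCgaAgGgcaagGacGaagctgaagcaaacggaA
HAT1: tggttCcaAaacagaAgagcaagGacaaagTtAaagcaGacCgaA
HAT2: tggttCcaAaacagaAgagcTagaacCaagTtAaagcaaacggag
HAT22: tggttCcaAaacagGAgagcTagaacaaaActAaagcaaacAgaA
HB17: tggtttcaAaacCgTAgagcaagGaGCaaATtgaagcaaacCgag
The 6 other members differ from ATHB2 at 7 to 10 of these bases. Read as codons, however, the stretches of ATHB4, HAT3, HAT1, HAT2 and HAT22 code for the same residues as that of ATHB2. HB17 differs only by a serine in place of a threonine. The stretch was located by an exact match to its first 8 residues, so those were bound to be the same in every gene. Whole proteins were aligned, and identity was counted only at positions without a gap. By this measure HAT1 and HAT2 are the closest pair of the 7, with 81.7% identical residues, followed by ATHB4 and HAT3 with 74.6%. ATHB2 shares 67.4% with HAT2 and 64.1% with HAT1, and HAT22 is closer to HAT9 (79.5%), a class II gene outside the 7, than to any of the 7. HB17 (275 residues) is likewise closest to a gene outside the 7, ATHB18 (67.2%), whose protein is shorter (206 residues). The transcripts of HAT1 and HAT2 still differ at 7 or more positions in every 75-base window, those of HAT22 and HAT9 at 5 or more and those of ATHB4 and HAT3 at 8 or more, with at least 10 between all other pairs.

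Upstream sequences were read because both signals, shade and dehydration, are known to act through short promoter motifs. PIFs bind the G-box (CACGTG) and the PIF box (CACATG), ABA-activated bZIP factors bind the ABRE core (ACGTG, which is also part of every G-box), and HD-Zip proteins bind AATNATT. The 300 bases before the annotated start are shown for the 3 genes that fell in S1 and for HAT2 and HAT22, which rose. They are read 5′ to 3′ from TAIR10.1, with every match to these 4 motifs on either strand in capitals.
ATHB2 (chr4:9448814-9449113, plus strand): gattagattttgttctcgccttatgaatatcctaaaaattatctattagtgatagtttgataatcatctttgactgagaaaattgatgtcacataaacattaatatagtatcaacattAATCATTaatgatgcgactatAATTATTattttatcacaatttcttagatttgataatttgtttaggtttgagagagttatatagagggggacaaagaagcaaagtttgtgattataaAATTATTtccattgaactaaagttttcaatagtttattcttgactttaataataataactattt
HAT1 (chr4:9739218-9739517, plus strand): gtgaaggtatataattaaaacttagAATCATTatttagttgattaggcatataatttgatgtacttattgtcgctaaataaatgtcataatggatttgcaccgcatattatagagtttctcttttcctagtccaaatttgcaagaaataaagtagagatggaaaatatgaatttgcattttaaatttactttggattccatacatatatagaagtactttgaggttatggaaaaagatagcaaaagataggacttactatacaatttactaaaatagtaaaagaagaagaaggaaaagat
HAT3 (chr3:22322662-22322961, minus strand): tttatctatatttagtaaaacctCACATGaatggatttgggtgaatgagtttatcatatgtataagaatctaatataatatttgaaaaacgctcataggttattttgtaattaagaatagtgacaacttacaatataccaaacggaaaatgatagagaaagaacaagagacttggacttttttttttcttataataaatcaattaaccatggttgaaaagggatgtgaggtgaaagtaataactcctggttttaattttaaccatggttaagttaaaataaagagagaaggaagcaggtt
HAT2 (chr5:19218008-19218307, minus strand): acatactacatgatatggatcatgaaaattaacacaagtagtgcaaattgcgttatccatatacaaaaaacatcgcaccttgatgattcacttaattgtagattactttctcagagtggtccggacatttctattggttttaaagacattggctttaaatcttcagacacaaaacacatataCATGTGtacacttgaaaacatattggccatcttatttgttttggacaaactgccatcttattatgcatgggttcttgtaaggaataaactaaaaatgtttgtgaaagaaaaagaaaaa
HAT22 (chr4:17767742-17768041, plus strand): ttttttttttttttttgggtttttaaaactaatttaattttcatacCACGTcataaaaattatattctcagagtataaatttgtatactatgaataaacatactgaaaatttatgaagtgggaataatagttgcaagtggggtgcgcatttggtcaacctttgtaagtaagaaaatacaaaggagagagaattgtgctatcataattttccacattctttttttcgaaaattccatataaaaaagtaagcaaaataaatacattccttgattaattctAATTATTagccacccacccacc
The 300 bases before ATHB2 hold 3 HD-Zip sites, starting 182, 161 and 64 bases before the gene, and no match to the other motifs. At least 1 HD-Zip site lies in the window of 35.4% of 27443 annotated genes. All such shares count windows with at least 1 match, and the share with 3 or more was not worked out. HAT1 has 1 HD-Zip site, 275 bases upstream, HAT22 has 1, 22 bases upstream, and ATHB4 and HB17 have 1 each. HAT3 and HAT2 each have a PIF box, 277 and 118 bases upstream, a motif present in 13.1% of such windows. The ABRE core, present in 25.6% of all windows, was matched before HAT22, starting 254 bases upstream, and before HB17, and HB17 alone of the 7 holds a G-box (7.09% of all windows). In 1000 bases, ATHB2 has 5 HD-Zip sites but no G-box, PIF box or ABRE core, whereas HAT2 has 3 PIF boxes and 2 ABRE cores. In windows of that length, 68.6% of all genes have an HD-Zip site, 37.7% a PIF box and 54.4% an ABRE core. A match is a description of these letters and not evidence of a bound site.

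**Figure D1:**
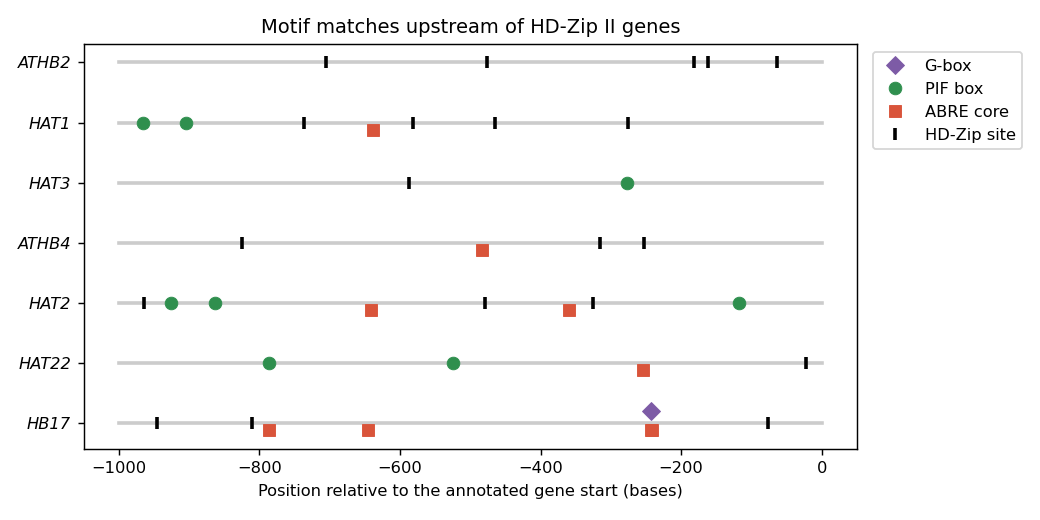
Matches to 4 motifs in the 1000 bases before the annotated start of the 7 genes, with position in bases on the x axis. ATHB2 carries only HD-Zip sites, 5 in all, while PIF boxes occur before HAT1, HAT2, HAT3 and HAT22.

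Levels are given as FPKM, fragments counted per length of transcript and per depth of the library, which can be set side by side between genes. Each library had between 21139 and 22457 genes above 0, and replicate libraries correlated at 0.982 to 0.985 across genes on the log2 scale. RD29B, a classic dehydration gene, followed the labels, with means of 0.404, 475 and 2662 FPKM in W, S1 and S3. Markers of the shoot meristem summed to at most 0.022 FPKM in any library, with WUS and CLV3 at 0 throughout, and flower and seed markers to at most 1.36 FPKM, whereas the leaf gene RCA had means of 4901, 1669 and 2348 FPKM. In both W libraries 40 genes were listed at 0 although they reached 100 FPKM or more in another library, among them the leaf genes RBCS1A and LHCB1.3, and a listed 0 is therefore not taken as absence of transcript. All 7 HD-Zip genes were above 0 in at least 1 library and were tested.

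**Figure D2:**
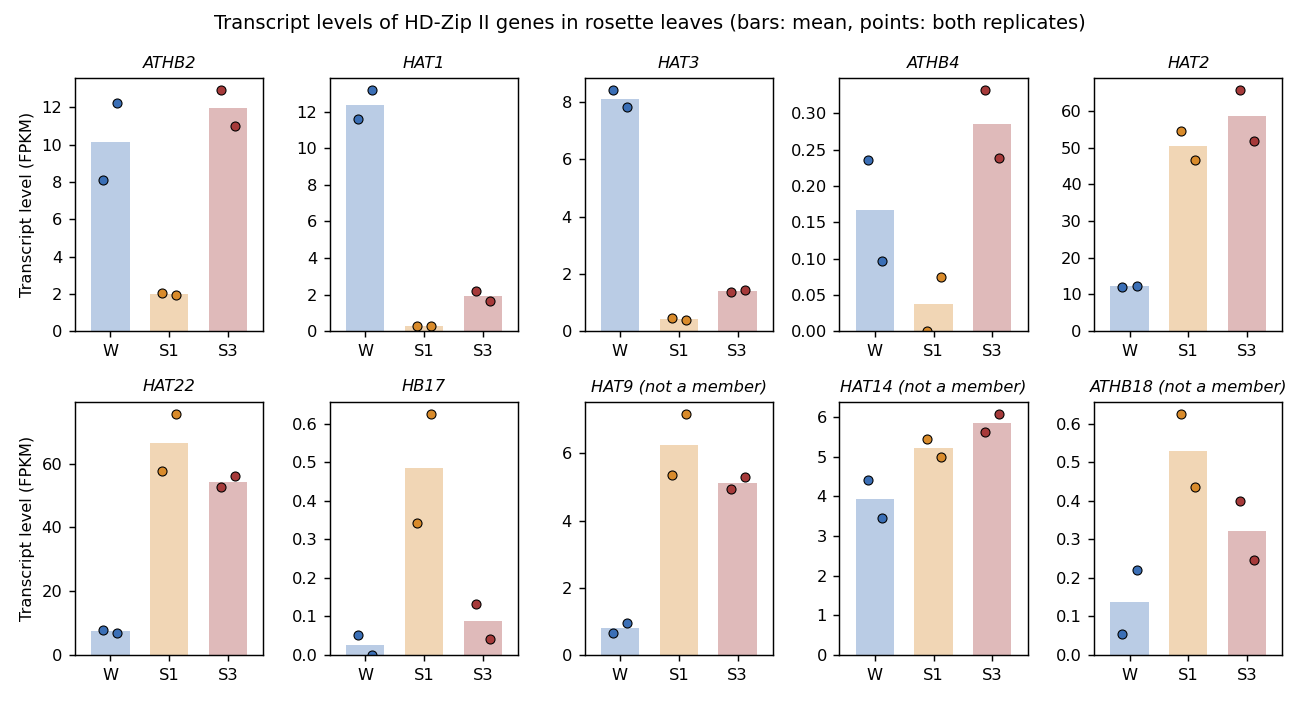
Transcript levels in FPKM (y axis, a separate scale for each gene) in W, S1 and S3, with bars for the mean and points for both replicates; the last 3 panels are class II genes outside the 7. ATHB2, HAT1 and HAT3 are lowest in S1, HAT2 and HAT22 are lowest in W, and ATHB4 and HB17 stay under 1 FPKM in every library.

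Between W and S1 the family was split. HAT1, HAT3 and ATHB2 fell, by 40.8, 19.4 and 5.11 times in mean FPKM, while HAT22 and HAT2 rose by 9.03 and 4.14 times. A gene was called changed when limma's adjusted p was at most 0.05, the log2 fold change of FPKM + 1 was at least 1 in size and a condition mean was above 0.831 FPKM. By these criteria 2 of the 7 were called higher in S1 than in W and 3 lower, against 13.7% and 12.1% of all 24759 genes tested. Their median log2 fold change was -0.17, and that of all genes was 0. The W and S1 replicates did not overlap for any of the 7, as for 74.9% of all genes.

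Among the genes that fell, HAT1, which acts in brassinosteroid and shade responses, had 11.6 and 13.2 FPKM in W and 0.304 in both S1 libraries. Its W and S1 libraries were far apart, and the log2 fold change was -3.36 (SE 0.145, n = 2 per condition, limma adjusted p = 0.000137). HAT3, which takes part in leaf polarity, had 8.39 and 7.82 FPKM in W against 0.451 and 0.386 in S1. Its libraries were likewise well separated, with a log2 fold change of -2.68 (SE 0.108, limma adjusted p = 0.000118). ATHB2, the best known shade gene of the family, had 8.10 and 12.2 FPKM in W and 2.06 and 1.93 in S1, a log2 fold change of -1.88 (SE 0.21, limma adjusted p = 0.00153). The W replicates of ATHB2 were less alike than those of HAT1 and HAT3, yet both lay above every S1 library. Low levels in S1 rest on few fragments, about 15 and 17 for HAT1 and 22.4 and 21.6 for HAT3, and the added 1 FPKM shrinks such changes. With 0.1 added instead, the log2 fold changes were -4.95 for HAT1, -3.99 for HAT3 and -2.27 for ATHB2.

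Among the genes that rose, HAT22, itself responsive to ABA, had 7.81 and 6.92 FPKM in W and 57.5 and 75.5 in S1. Every S1 library was far above every W library, and the log2 fold change was 3 (SE 0.15, limma adjusted p = 0.000176). HAT2, an auxin-responsive gene, was nearly equal in the W replicates, at 12.2 FPKM in each, and had 54.4 and 46.6 FPKM in S1. Its log2 fold change was 1.96 (SE 0.143, limma adjusted p = 0.000444). The closest pair of proteins among the 7 therefore moved in opposite directions, HAT1 down and HAT2 up, from W levels of 12.4 ± 1.10 and 12.2 ± 0.0224 FPKM (SD, n = 2).

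ATHB4 and HB17 were barely expressed. ATHB4, a partner of HAT3 in leaf polarity, was listed at 0.236 and 0.0970 FPKM in W, 0 and 0.0740 in S1, then 0.331 and 0.238 in S3. These values correspond to at most about 16.3 fragments in a library, and no comparison of ATHB4 was called. HB17, a less studied member, was listed at 0.0529 and 0 FPKM in W, 0.344 and 0.625 in S1, then 0.133 and 0.0411 in S3. Its S1 libraries, with about 27.8 and 57.1 fragments, were the highest, and S1 was above W by 0.53 on the log2 scale (SE 0.101, limma adjusted p = 0.00929), which is under the size and level needed for a call. With 0.1 added this difference was 2.20, past the size but not the level criterion, and the adjusted p of limma was 0.0564 without W replicate 2. In S3/S1 the log2 difference was -0.44 for HB17 and 0.31 for ATHB4, and with 0.1 added it was -1.64 and 1.53. In whole leaves, fewer expressing cells and less RNA per cell cannot be told apart, and this holds for every change described here.

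Between the first and the third drying, part of the family changed again. The S3/S1 comparison uses the same S1 libraries as S1/W, so that both comparisons are not independent and their values are set side by side only. ATHB2 and HAT1 were called higher in S3 than in S1, none of the 7 was called lower, and 5 were not called, where 5.55% of all genes were called higher and 6.71% lower. The median log2 fold change of the 7 was 0.31, and that of all genes was 0.

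ATHB2 went from 2.06 and 1.93 FPKM in S1 to 12.9 and 10.99 in S3, a rise of 6.001 times in the means with a log2 fold change of 2.11 (SE 0.21, limma adjusted p = 0.0028). HAT1 went from 0.304 in both S1 libraries to 2.17 and 1.65 FPKM, 6.30 times higher, but at much lower levels, and its log2 fold change was 1.15 (SE 0.145, limma adjusted p = 0.00519). That value depended on the added constant and was 2.31 with 0.1 in place of 1 FPKM. HAT3 went from 0.451 and 0.386 FPKM to 1.37 and 1.42, 3.33 times higher, with no overlap between replicates, as for 66.4% of all genes. Its log2 fold change of 0.76 (SE 0.108, limma adjusted p = 0.00725) was short of the size criterion, and with 0.1 added it was 1.53 and was called.

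Neither of the genes that rose in S1 was called between S1 and S3. HAT2 stood at 54.4 and 46.6 FPKM during the first drying and at 65.5 and 51.8 during the third, so the replicates overlapped, and the log2 difference was 0.21 with a 95% interval from -0.16 to 0.57 (limma adjusted p = 0.337). HAT22 stood at 57.5 and 75.5 FPKM during the first drying and at 52.6 and 56.2 during the third. Its S3 libraries lay just under its S1 libraries, with a log2 difference of -0.27 and an interval from -0.66 to 0.11 (limma adjusted p = 0.236). These intervals do not show equal levels, but neither reaches the size of the change in S1. In the notation in which the first sign gives S1 against W and the second S3 against S1, ATHB2 and HAT1 were [-/+], a class that held 325 genes (1.31% of those tested), HAT3 was [-/=] with 2399 genes (9.69%), and HAT2 and HAT22 were [+/=] with 2233 genes (9.02%). ATHB4 and HB17 were [=/=].

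**Figure D3:**
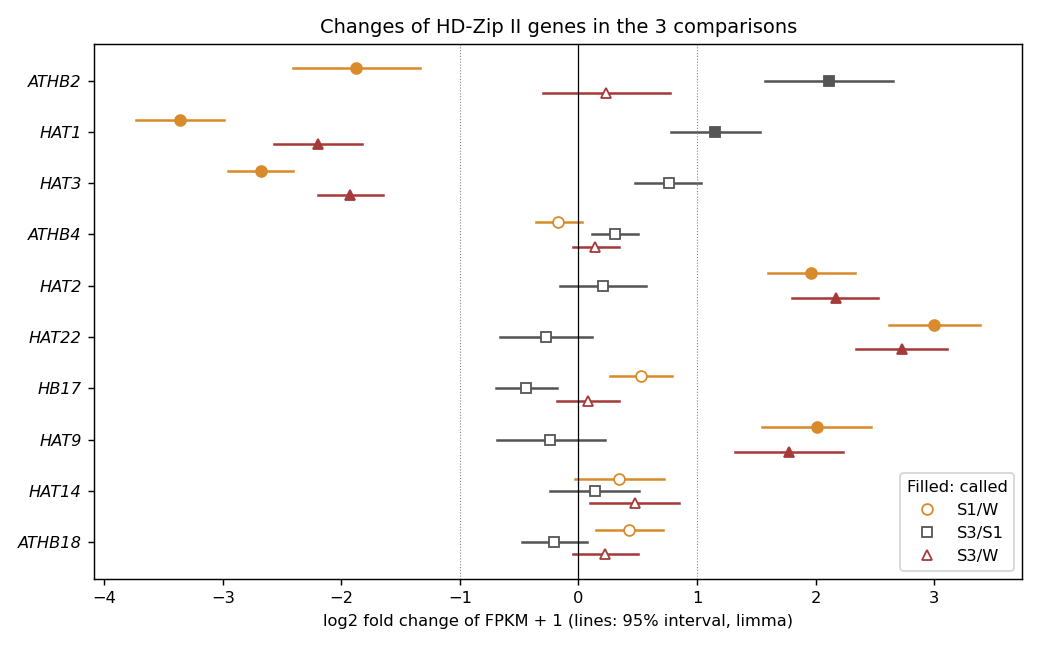
Log2 fold changes of FPKM + 1 (x axis) with 95% limma intervals for the 7 genes and for HAT9, HAT14 and ATHB18, in S1/W (circles), S3/S1 (squares) and S3/W (triangles), filled where called. ATHB2 is near 0 in S3/W (0.23), HAT1 and HAT3 stay below W, and HAT2 and HAT22 stay above it.

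Set against the watered plants, ATHB2 in S3 was close to its starting level, and the other called genes were not. In S3/W, HAT2 and HAT22 were called higher and HAT1 and HAT3 lower, 2 of 7 in each direction, against 15.3% and 14.4% of all genes. Their median log2 fold change was 0.14, and that of all genes was 0.01. ATHB2 had 10.2 ± 2.92 FPKM in W and 12.0 ± 1.36 in S3 (SD, n = 2), with replicates that overlapped, as they did for HB17, while those of 75.8% of all genes did not, and a log2 difference of 0.23 (interval -0.30 to 0.77, limma adjusted p = 0.396). The sign of that difference rested on 1 library, since it was -0.04 without W replicate 1. HAT1 stayed 6.48 times below W in S3, at a log2 fold change of -2.20 (limma adjusted p = 0.000281), and HAT3 stayed 5.82 times below W, at -1.93 (limma adjusted p = 2e-04). HAT2 was 4.82 times above W, at 2.17 (limma adjusted p = 0.000282), and HAT22 was 7.38 times above W, at 2.73 (limma adjusted p = 0.000193).

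The make-up of the family transcript pool changed with these shifts. Summed over the 7 genes, the level was 48.4 and 52.4 FPKM in W, 115 and 125 in S1, then 135 and 122 in S3. HAT2 and HAT22 together made up 41.3% and 36.5% of that sum in W, 97.3% and 97.4% in S1, and 87.5% and 88.3% in S3. ATHB2, HAT1 and HAT3 together held 28.1 and 33.2 FPKM when watered, 2.81 and 2.62 after the first drying and 16.4 and 14.1 after the third, most of the last being ATHB2. These groupings were chosen after the values were seen and are a description.

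**Figure D4:**
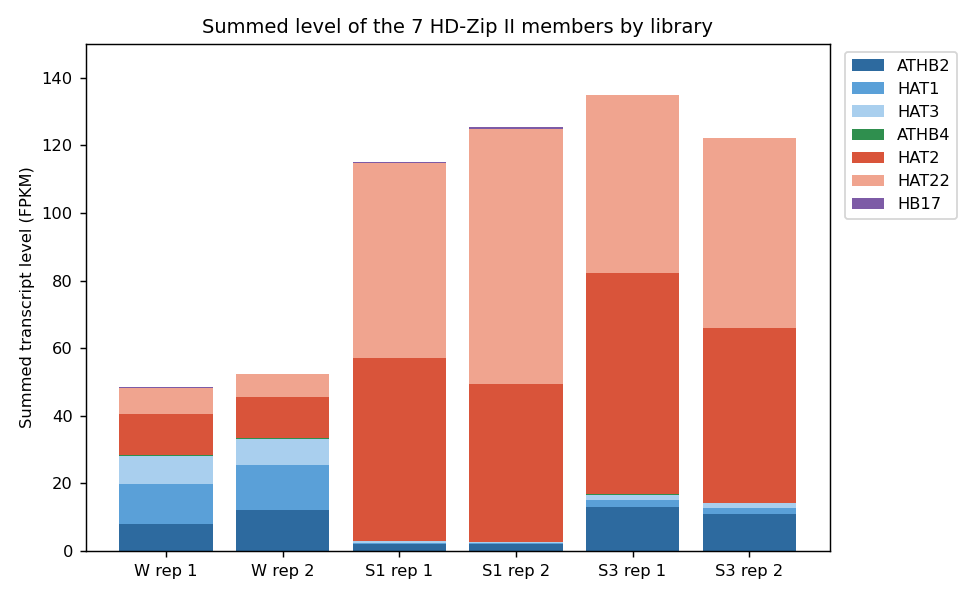
Stacked transcript levels of the 7 genes in FPKM (y axis) in each of the 6 libraries. The sum is 48.4 and 52.4 FPKM in W and at least 115 in each stressed library, where HAT2 and HAT22 fill most of the bar.

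The order of the genes in S1 differed from that in W. In W the upper 5 lay close together: HAT1, HAT2 and ATHB2 had overlapping replicates, as had ATHB2 and HAT3, and HAT3 (8.11 ± 0.407 FPKM, SD, n = 2) and HAT22 (7.36 ± 0.627) were separated by about their spread. In S1 the order was HAT22 (66.5 ± 12.7 FPKM), HAT2 (50.5 ± 5.52), ATHB2 (1.99 ± 0.0910), and then HB17, HAT3 and HAT1 under 1 FPKM, of which HB17 and HAT3 overlapped. In S3 HAT2 (58.6 ± 9.74 FPKM) and HAT22 (54.4 ± 2.55) overlapped, with ATHB2 next, then HAT1 (1.91 ± 0.366) and HAT3 (1.39 ± 0.0378). Ranked by mean level among genes above 0 in any library, HAT22 moved from percentile 58.4 in W to 91.1 in S1, and HAT1 from percentile 69.4 to 23.0.

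Of the class II genes outside the 7, HAT9 had a course like that of its nearest relative HAT22. HAT9 had 0.642 and 0.943 FPKM in W, 5.35 and 7.17 in S1, then 4.93 and 5.30 in S3. It was called higher in S1/W, with a log2 fold change of 2.01 (SE 0.179, limma adjusted p = 0.00076), and in S3/W, at 1.78 (limma adjusted p = 0.000898). HAT14 had 4.41 and 3.46 FPKM in W and 5.45 and 4.995 in S1, and ATHB18 stayed under 1 FPKM in every library. Neither was called in any comparison.

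Genes with the most similar course over the 6 libraries were sought among 14373 genes with at least 5 FPKM in a condition, by the distance between centred log2 values. The nearest to ATHB2 was BBX19, a B-box protein gene of light signalling, at a distance of 0.332, with 3.37 and 4.22 FPKM in W, 0.644 and 0.335 in S1, then 5.83 and 4.77 in S3. It was followed by AT1G23390 (0.341) and AT4G04750 (0.36). The nearest to HAT3 was NPR4, a salicylic acid receptor gene, at 0.179, before AT2G36430 (0.225) and AT5G03995 (0.241). The nearest to HAT1 was AT2G42690 at 0.247, before EP1 (AT4G23170, 0.276) and ACA1 (AT3G52720, 0.37). For HAT2 the order was AT2G45720 (0.233), AT3G19910 (0.255) and AT1G06210 (0.311), and for HAT22 it was AT3G17770 (0.236), ACR8 (0.257) and AT3G53960 (0.266). HAT1 and HAT3 stood 0.733 apart, which made HAT3 number 37 in the ranking for HAT1, whereas HAT22 was only number 1254 for HAT2. These distances describe 6 libraries that share 3 conditions.

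Upstream of the family, the light receptors and PIFs were divided as well. Of 11 phytochrome, PIF and HY5 genes, 2 were called higher in S1/W, PIF3 at a log2 fold change of 2.55 and PHYA at 1.08, and 3 were called lower, PIF1 at -2.28, PIF7 at -1.98 and PHYB at -1.12. Over all genes tested, 13.7% were called higher and 12.1% lower. The median of the list was -0.37. PIF7, a main PIF of the shade response, had 28.4 and 28.8 FPKM in W, 9.02 and 4.605 in S1, then 7.49 and 9.32 in S3, and stayed below W in all 4 stressed libraries. PHYB, the receptor that senses shade, had 15.3 and 16.7 FPKM in W and 7.23 and 6.45 in S1. PIF4 had means of 101, 58.8 and 89.2 FPKM and PIF5 of 59.7, 55.9 and 112 FPKM in W, S1 and S3, with log2 differences of 0.59 and 0.99 between S3 and S1 that were under the size criterion. In S3/S1 only PIF1 was called, higher by 1.18, against 5.55% of all genes called higher and 6.71% lower, and the list median was 0.39. In S3/W, 2 were called higher (PHYA and PIF3) and 2 lower (PIF1 and PIF7), against 15.3% and 14.4% of all genes. Without W replicate 1 the number called higher in S1/W was 1, without S1 replicate 2 the number called lower was 2, without S1 replicate 1 or S3 replicate 1 the number called higher in S3/S1 was 2, and without S3 replicate 1 the number called lower in S3/W was 1.

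Other genes that shade switches on did not move as a block. Of 15, 3 were called higher in S1/W, ST2A at 8.48, HFR1 at 1.85 and CKX5 at 1.44, and 4 lower, PAR1 at -2.56, PAR2 at -2.37, IAA29 at -2.31 and XTH15 at -1.76, with a list median of -0.28. The shares of all genes tested were 13.7% higher and 12.1% lower. PAR1 and PAR2, which restrain elongation in shade, had means of 8.98 and 6.10 FPKM in W, 0.682 and 0.376 in S1, then 0.562 and 0.239 in S3. ST2A, a sulfotransferase gene that acts on a jasmonate, rose from 0.577 and 0.920 FPKM to 742 and 515 in S1 and stood at 51.8 and 80.2 in S3. HFR1, a brake on PIF activity, was variable, with 0.464 and 2.67 FPKM in W, 5.25 and 10.3 in S1, then 11.4 and 9.54 in S3. PIL1, a gene often used to report shade, had means of 0.473, 0.340 and 0.180 FPKM and was not called. None of the 15 was called higher in S3/S1, against 5.55% of all genes. In the same comparison 3 were called lower, against 6.71% of all genes, ST2A at -3.24, CKX5 at -1.37 and IAA19 at -1.18. In S3/W, 2 were called higher and 6 lower, against 15.3% and 14.4% of all genes. The number called higher in S1/W was 2 with only the 4 libraries compared and also without W replicate 1, S1 replicate 1, S1 replicate 2, S3 replicate 1 or S3 replicate 2. Without W replicate 1, 3 were called lower in S1/W. Leaving out any S1 or S3 replicate, 2 were called lower in S3/S1, and leaving out either S3 replicate, 1 was called higher in S3/W.

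Of 13 HD-Zip III and leaf polarity genes, 1 was called higher in S1/W, ZPR3 at 1.13, which encodes a small inhibitor of HD-Zip III proteins, and 1 lower, PHB at -1.57, an HD-Zip III gene. Among all genes tested, 13.7% were called higher and 12.1% lower. PHB had 7.79 and 5.12 FPKM in W, 1.57 and 1.38 in S1, then 1.44 and 1.70 in S3. REV, a known activator of several class II genes, had 4.28 and 3.12 FPKM in W, 7.96 and 5.89 in S1, then 1.77 and 2.40 in S3. REV was highest in S1, but its log2 fold change of 0.75 in S1/W was under the size criterion and was not called. It was called lower in S3/S1 at -1.36 (limma adjusted p = 0.0101). A relation between REV and the levels of the class II genes was not tested. AS1 and KAN1, which also shape the leaf, were called lower in S3/S1 at -1.71 and -1.65, and no gene of the list was called higher. For all genes these shares were 6.71% lower and 5.55% higher. Leaving out S1 replicate 1, the number called lower in S3/S1 was 1, and leaving out S3 replicate 1, the number called higher was 1.

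**Figure D5:**
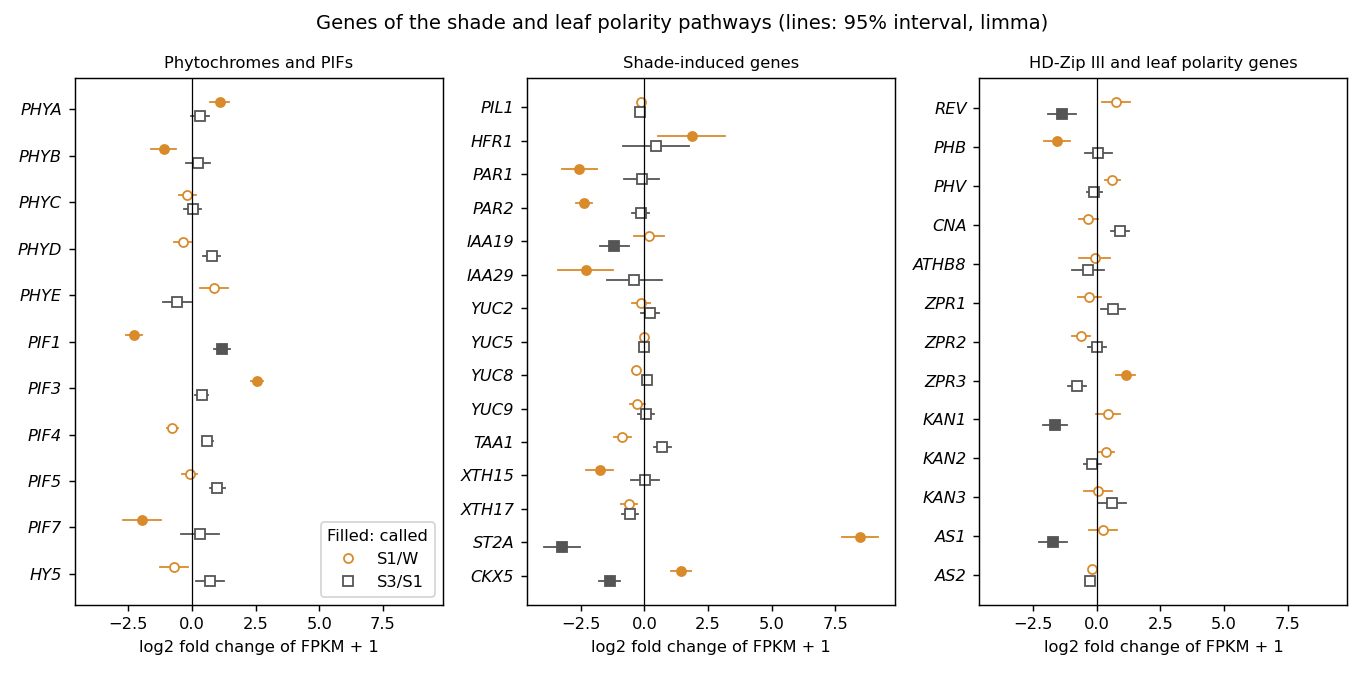
Log2 fold changes of FPKM + 1 (x axis) with 95% limma intervals in S1/W (circles) and S3/S1 (squares), filled where called, for 11 phytochrome, PIF and HY5 genes, 15 shade-induced genes and 13 HD-Zip III and leaf polarity genes. In S3/S1 the filled squares are PIF1 on the right and IAA19, ST2A, CKX5, REV, KAN1 and AS1 on the left.

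Measures of dehydration and of tissue also differed between the conditions. Over all genes tested, 13.7% were called higher and 12.1% lower in S1/W, and 5.55% and 15.3% were called higher in S3/S1 and S3/W. All 9 ABA and dehydration markers were called higher in S1/W, with a median log2 fold change of 5.05, and in S3/W, with a median of 6.55. Of these, RAB18, a dehydrin gene, had means of 10.3, 335 and 11495 FPKM, and 3 of the 9 were called higher in S3/S1. That number was smaller when either S3 replicate was left out, as was the number over all genes. All 3 vasculature markers were called higher in S1/W and in S3/W, and their summed level was 54.1 to 63.9 FPKM in W, 268 to 279 in S1 and 272 to 310 in S3, with SUC2, a sucrose transporter of the phloem, at 48.4, 245 and 242 FPKM on average. None of the 3 was at 0 in all libraries. HAT2 and HAT22 were high in the same libraries, and the part of vascular tissue in their values was not tested. Of the 4 photosynthetic markers, RCA and GLK1 were called lower in S1/W, at -1.55 and -2.41. RBCS1A and LHCB1.3 were called higher, from 0 in both W libraries to means of 7801 and 13353 FPKM. Since a listed 0 is not taken as absence of transcript, these 2 calls are not read as a rise. The part of photosynthetic cells in the values of the family was not tested. The 5 epidermis and guard cell markers summed to 48.6 to 56.0 FPKM in W, 65.9 to 67.9 in S1 and 45.7 to 50.3 in S3. Of these, KAT1 was called higher in S1/W at 2.44, MYB60 lower at -2.22, and 3 were not called. The 3 root markers summed to 0.123 to 0.294 FPKM in W and 22.3 to 26.0 in S3, nearly all from PYK10, with CASP1 at 0 in every library.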

How the data were processed

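The authors mapped reads with bowtie and tophat to TAIR10 and ran cuffdiff, which gave the deposited FPKM values, 1 per gene and library. No further scaling was applied. Base calling used CASAVA 1.8.2, per the submitters' processing notes. The files hold no read counts, so depth is known only from the study's list of mapped reads, from which fragments per gene were approximated, and no counting interval is given. All 6 libraries entered a single limma 3.58.1 model (R 4.3.3) of log2(FPKM + 1) on condition, with a variance trend (3 residual and 2.07 prior degrees of freedom). P-values were adjusted by Benjamini and Hochberg over the 24759 genes above 0 in a library. Calls needed adjusted p of at most 0.05, a log2 fold change of at least 1 in size and a condition mean above the 25th percentile of all condition means over 0. The replicates are described as independent biological samples, with 2 per condition. The p-values rest on each gene's own spread over the 6 libraries, combined with a spread shared over genes. Cuffdiff, which needs reads, was not run. The script was tested on simulated data.

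Positions and sequences came from TAIR10.1 and its RefSeq annotation, in which 32815 of the 33555 loci were found, read with Python 3.11.15 and Biopython 1.88. The files give no coordinates, and protein identities were computed from the annotated coding sequences, over positions aligned without a gap. The 7 genes and all gene lists were chosen with earlier results of these data known. The text names all 7 members, up to 4 genes of a list with the largest change in a comparison, and REV, PHB, PIF4, PIF5, PIF7, PHYB, HFR1, PIL1, RD29B and RAB18, together with the 3 genes nearest to a member that reached 5 FPKM. Marker genes of other tissues, HAT14 and ATHB18 are named in addition. Alternatives were a smaller added constant, a minimum mean of 1 FPKM, no fold criterion, another scaling, no variance trend, only the libraries compared, a replicate block, and leaving out each library.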

Additional observations from a re-analysis of the deposited data

How the results depend on the processing

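Over the 7 genes and 3 comparisons, 246 values were computed under alternatives, of which 245 gave the same call as the values reported (higher, lower or not called). For ATHB4 and HB17, which were not called under any alternative and gave no value with a minimum mean of 1 FPKM, the separate criteria were crossed: with 0.1 added the size criterion was passed by HB17 in S1/W (2.20) and S3/S1 (-1.64) and by ATHB4 in S3/S1 (1.53), and in S3/S1 the adjusted p (limma) rose to as much as 0.149 for HB17 and 0.178 for ATHB4 without a library. The call that changed was HAT3 in S3/S1, which was called with 0.1 in place of 1 FPKM added, at a log2 fold change of 1.53 (limma adjusted p = 0.00417). Dropping the fold criterion, which is not among the 246 values, also made HAT3 called in S3/S1, with 3 members higher in place of 2. Without the fold criterion the genes called over the whole table were 6306 higher and 5874 lower in S1/W (3401 and 2999 with it), 3600 and 3666 in S3/S1 (1374 and 1662), and 6809 and 6130 in S3/W (3794 and 3554). Replicate numbers are shared between conditions only as numbers: deviations from the condition means of samples with the same number correlated at 0.160 for W and S1, 0.006 for W and S3 and -0.020 for S1 and S3, across 17453 genes. With the replicate number as a block, 3394 genes were called higher and 2985 lower in S1/W, 1346 and 1640 in S3/S1, and 3801 and 3537 in S3/W, and the block changed no call among the 7. Leaving out each library in turn gave 3131 to 3484 genes higher and 2495 to 3211 lower in S1/W, and changed no call among the 7. With 0.1 added, 3 phytochrome and PIF genes and 1 leaf polarity gene were called higher in S3/S1 (1 and 0 with 1 added). The number over all genes rose as well, to 1794 from 1374. Over the whole table, fewer genes were called higher and fewer lower in S3/S1 when any library was left out. The values of ATHB4, HB17 and, in S1, HAT1 and HAT3 are limited by few fragments.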
